A study of Mus musculus with 9 samples.

Results

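The keratin genes of sorted mouse thymic epithelial cells are described here across 6 groups of RNA-seq libraries. The genes were taken by symbol, as every row of the count table named Krt followed by a number and at most 1 letter, which leaves out the keratin-associated proteins. This gave 51 of 38720 genes, 28 of them type I keratins and 23 type II. All 51 had at least 1 count in the 20 libraries. Krt85, Krt87, Krt88 and Krt90 were not analysed here.

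Both cell types were sorted from cells with EpCAM and MHCII and without the blood cell marker CD45. Those with Ly51 and no UEA1 staining were the cortical cells (cTEC), and those with UEA1 and no Ly51 the medullary cells (mTEC). The transgenic set came from nude mice (nu/nu), which lack functional Foxn1, carrying a FLAG-tagged Foxn1 on a BAC transgene, written wt*. Heterozygous mice (wt*/-::nu/nu) gave 3 cTEC and 2 mTEC libraries, and homozygous mice (wt*/wt*::nu/nu) gave the same numbers. Functional FOXN1 in these mice comes from the transgene, and the genotypes differ in its dose. The deletion set held 10 cTEC libraries at 72 h of doxycycline. All 10 came from mice homozygous for both beta5t-rtTA and floxed Foxn1 (Foxn1 fl/fl). Control mice lacked tetO-Cre, and deleted mice carried 1 copy of it, a design in which Cre removes exons 7 and 8 of Foxn1 in cells with an active beta5t promoter. The sources used here do not give the ages, any pooling, or whether each library came from its own mouse, so the p-values measure the spread between these libraries.

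Keratins form the intermediate filaments of epithelial cells, and each filament unit joins a type I with a type II chain. Simple epithelia use Krt8 with Krt18, often together with Krt7, Krt19 or Krt20. The basal layer of stratified epithelia uses Krt5 with Krt14, and Krt15 there marks basal and stem cells. As cells stratify they switch to suprabasal pairs such as Krt1 with Krt10 in epidermis or Krt4 with Krt13 in mucosa, while Krt6a, Krt16 and Krt17 mark activated cells and ducts of skin appendages. In the thymus, Krt8 and Krt18 are the classical keratins of the cortex and Krt5 and Krt14 those of the medulla. FOXN1 is the forkhead factor needed for thymic epithelial development and for hair keratinisation, and it binds DNA at a GACGC core. AIRE lets mTEC transcribe genes that are otherwise restricted to other tissues.

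By these roles, 5 members were simple, 3 basal, 6 suprabasal epidermal, 4 suprabasal mucosal, 5 activated or duct keratins, 9 keratins of the hair inner root sheath and companion layer, 15 of the hair shaft and nail, and 4 were in no such class (Krt23, Krt24, Krt80 and Krt222). Type II genes lie on chromosome 15 and type I genes on chromosome 11. Krt18, the 1 type I gene elsewhere, is next to Krt8 on chromosome 15.

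The promoter windows listed for the simple pair (Krt8 and Krt18) and for the basal pair (Krt5 and Krt14) are shown because the results below turn on these 4 genes. They are RefSeq sequences of build GRCm38.p6, 300 bases long, written 5′ to 3′ on the strand of the gene. Those of Krt8, Krt18 and Krt5 run from 250 before to 50 after the start of the gene. Capitals mark a match to GACGC or TATAAA on either strand. The Krt8 window is chr15:102004293-102004592 (minus strand), that of Krt18 chr15:102027966-102028265 (plus strand), that of Krt5 chr15:101712856-101713155 (minus strand) and that of Krt14 chr11:100205981-100206280 (minus strand). The Krt14 window lies inside the annotated gene (chr11:100203162-100207510) and not at its 5′ end.
Krt8: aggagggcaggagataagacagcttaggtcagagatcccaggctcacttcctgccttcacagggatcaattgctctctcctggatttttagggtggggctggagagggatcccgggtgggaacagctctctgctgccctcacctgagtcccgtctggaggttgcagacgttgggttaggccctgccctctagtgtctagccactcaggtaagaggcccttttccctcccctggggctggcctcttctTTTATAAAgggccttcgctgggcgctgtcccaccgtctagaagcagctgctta
Krt18: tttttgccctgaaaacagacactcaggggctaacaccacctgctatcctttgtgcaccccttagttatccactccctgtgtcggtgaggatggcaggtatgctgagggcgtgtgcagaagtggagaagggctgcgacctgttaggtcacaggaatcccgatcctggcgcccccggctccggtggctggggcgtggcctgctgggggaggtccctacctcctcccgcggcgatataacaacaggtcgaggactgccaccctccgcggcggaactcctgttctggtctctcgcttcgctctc
Krt5: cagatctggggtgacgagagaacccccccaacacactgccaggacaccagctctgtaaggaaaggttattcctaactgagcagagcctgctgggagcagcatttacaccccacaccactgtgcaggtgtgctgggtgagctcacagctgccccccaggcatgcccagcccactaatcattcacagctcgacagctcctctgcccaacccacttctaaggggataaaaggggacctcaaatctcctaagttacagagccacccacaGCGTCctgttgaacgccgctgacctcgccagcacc
Krt14: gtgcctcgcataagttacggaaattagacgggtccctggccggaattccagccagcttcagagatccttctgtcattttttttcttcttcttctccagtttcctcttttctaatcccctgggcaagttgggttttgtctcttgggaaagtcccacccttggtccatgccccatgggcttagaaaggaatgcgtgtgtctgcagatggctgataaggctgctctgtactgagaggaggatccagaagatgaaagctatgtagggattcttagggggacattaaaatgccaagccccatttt
Krt5 held GACGC on the opposite strand (GCGTC) from base 16 after the start, and Krt8 and Krt18 held none in these windows. The Krt14 window held none either, but it does not cover the 5′ end of the gene, so that promoter was not read. Among 36 windows of 35 keratin genes, 7 held GACGC (Krt5, Krt7, Krt9, Krt13, Krt23, Krt27 and Krt31), against 27.2% of all 32851 windows in the table. TATAAA was in 19 of the 36, against 13.6% of all windows, and the GC box GGGCGG in 2, against 35.7%. Krt8 and Krt20 were the simple keratins with TATAAA, Krt8 in overlapping matches on both strands. A match is a description of letters, and binding was not measured here.

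Library totals ran from 20719630 to 22372633 counts. Levels are in CPM, the counts scaled to the raw library total, and since no transcript lengths were used, they are compared between groups within a gene and not between genes. Summed cTEC markers (7 genes) reached 11170 to 12570 CPM in homozygous cTEC, 1130 to 1184 in heterozygous cTEC, 3828 to 15270 in control and 805.5 to 1421 in deleted cTEC. Summed mTEC markers (8 genes, Aire among them) reached 3833 to 4706 CPM in mTEC and 56.24 to 166.2 in transgenic cTEC. They were higher and more variable in the deletion set, at 261.4 to 1256 CPM in control and 146.3 to 1139 in deleted cTEC. Psmb11, the gene of the cortical beta5t subunit, averaged 0.92 CPM in control and 0.319 in deleted cTEC, where both alleles carry beta5t-rtTA, against 997.4 in homozygous cTEC. Foxn1 averaged 453.6 CPM in control and 433.6 in deleted cTEC, 1364 in homozygous and 1166 in heterozygous cTEC, and 317.9 in homozygous and 494.9 in heterozygous mTEC. Between the mTEC libraries it thus ran against the labelled dose (log2 change 0.66 ± 0.08, heterozygous minus homozygous), and between the cTEC libraries with it (-0.36 ± 0.06). Whole-gene counts separate neither the deleted exons nor the transgene from the nude allele, so they check no genotype, and the dose is taken from the labels throughout. Library 2 of both deletion groups stood apart, with the lowest mTEC marker sums of their groups (261.4 and 146.3 CPM), the lowest thymocyte sums (62.18 and 58.36) and almost no erythroid reads (0.182 and 0.274).

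The cTEC groups with a higher share of simple keratins had a lower share of basal ones, and mTEC combined both. Simple keratins supplied 90.9 to 91.6% of all keratin reads in homozygous cTEC, 81.0 to 86.9% in control, 71.7 to 79.4% in deleted and 71.5 to 73.8% in heterozygous cTEC. In mTEC the share was 36.1 to 41.8% at homozygous and 37.6 to 38.6% at heterozygous dose. Basal keratins supplied 1.5 to 1.71% in homozygous, 3.72 to 7.96% in control, 8.05 to 13.2% in deleted and 18.8 to 19.3% in heterozygous cTEC, and 35.4 to 44.2% in mTEC. Neither share overlapped between homozygous and heterozygous cTEC, nor between control and deleted cTEC. Shares of the same total are tied, so a change in 1 class moves the others. Between homozygous and heterozygous cTEC the summed CPM did not overlap either (simple 7493 to 7682 against 2757 to 3090, basal 123.2 to 143.4 against 701.3 to 815). Between control and deleted cTEC both sums overlapped (simple 3738 to 8356 against 3189 to 3751, basal 292.8 to 492.7 against 323.1 to 686.4). These are shares of reads, to which longer transcripts give more.

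**Figure D1:**
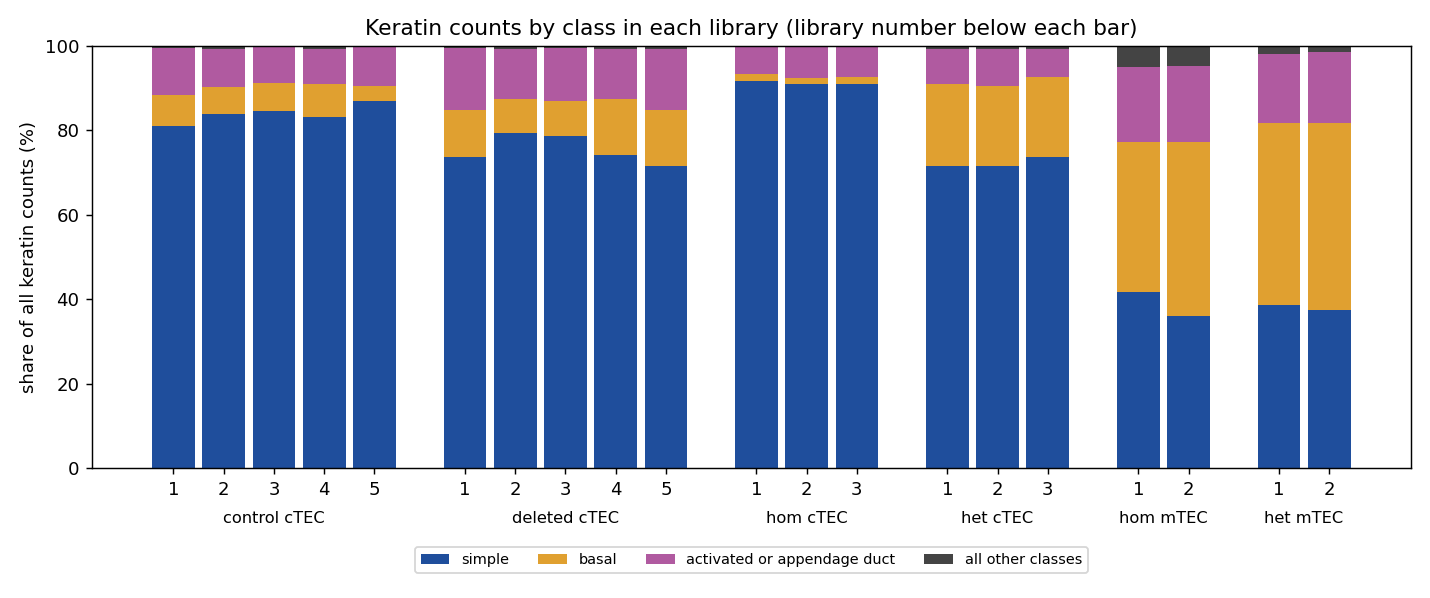
Share of all keratin counts (percent, y axis) taken by simple, basal, activated or duct keratins and all other classes in each of 20 libraries (x axis, library number under each bar, grouped). Simple keratins take 90.9 to 91.6% in homozygous cTEC and 71.5 to 73.8% in heterozygous cTEC.

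Breadth of keratin detection separated the subsets. Of the 51 keratins, 39 averaged at least 1 CPM in homozygous mTEC, 33 in heterozygous mTEC, 17 in deleted cTEC, 14 each in control and heterozygous cTEC and 9 in homozygous cTEC. Over all genes of the table, 44.3% and 40.9% reached that level in homozygous and heterozygous mTEC, and 34.0 to 35.8% in the cTEC groups. All 51 keratins were counted in both homozygous mTEC libraries, whereas 9 were at 0 in all 3 homozygous cTEC libraries and 10 in all 3 heterozygous ones. The 45 keratins other than Krt5, Krt7, Krt8, Krt14, Krt17 and Krt18 together reached 719.6 to 746.6 CPM in homozygous mTEC, 251.6 to 272.1 in heterozygous mTEC, 19.07 to 21.39 in homozygous and 75.63 to 99.23 in heterozygous cTEC, 31.06 to 126.2 in control and 56.59 to 105.6 in deleted cTEC.

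**Figure D2:**
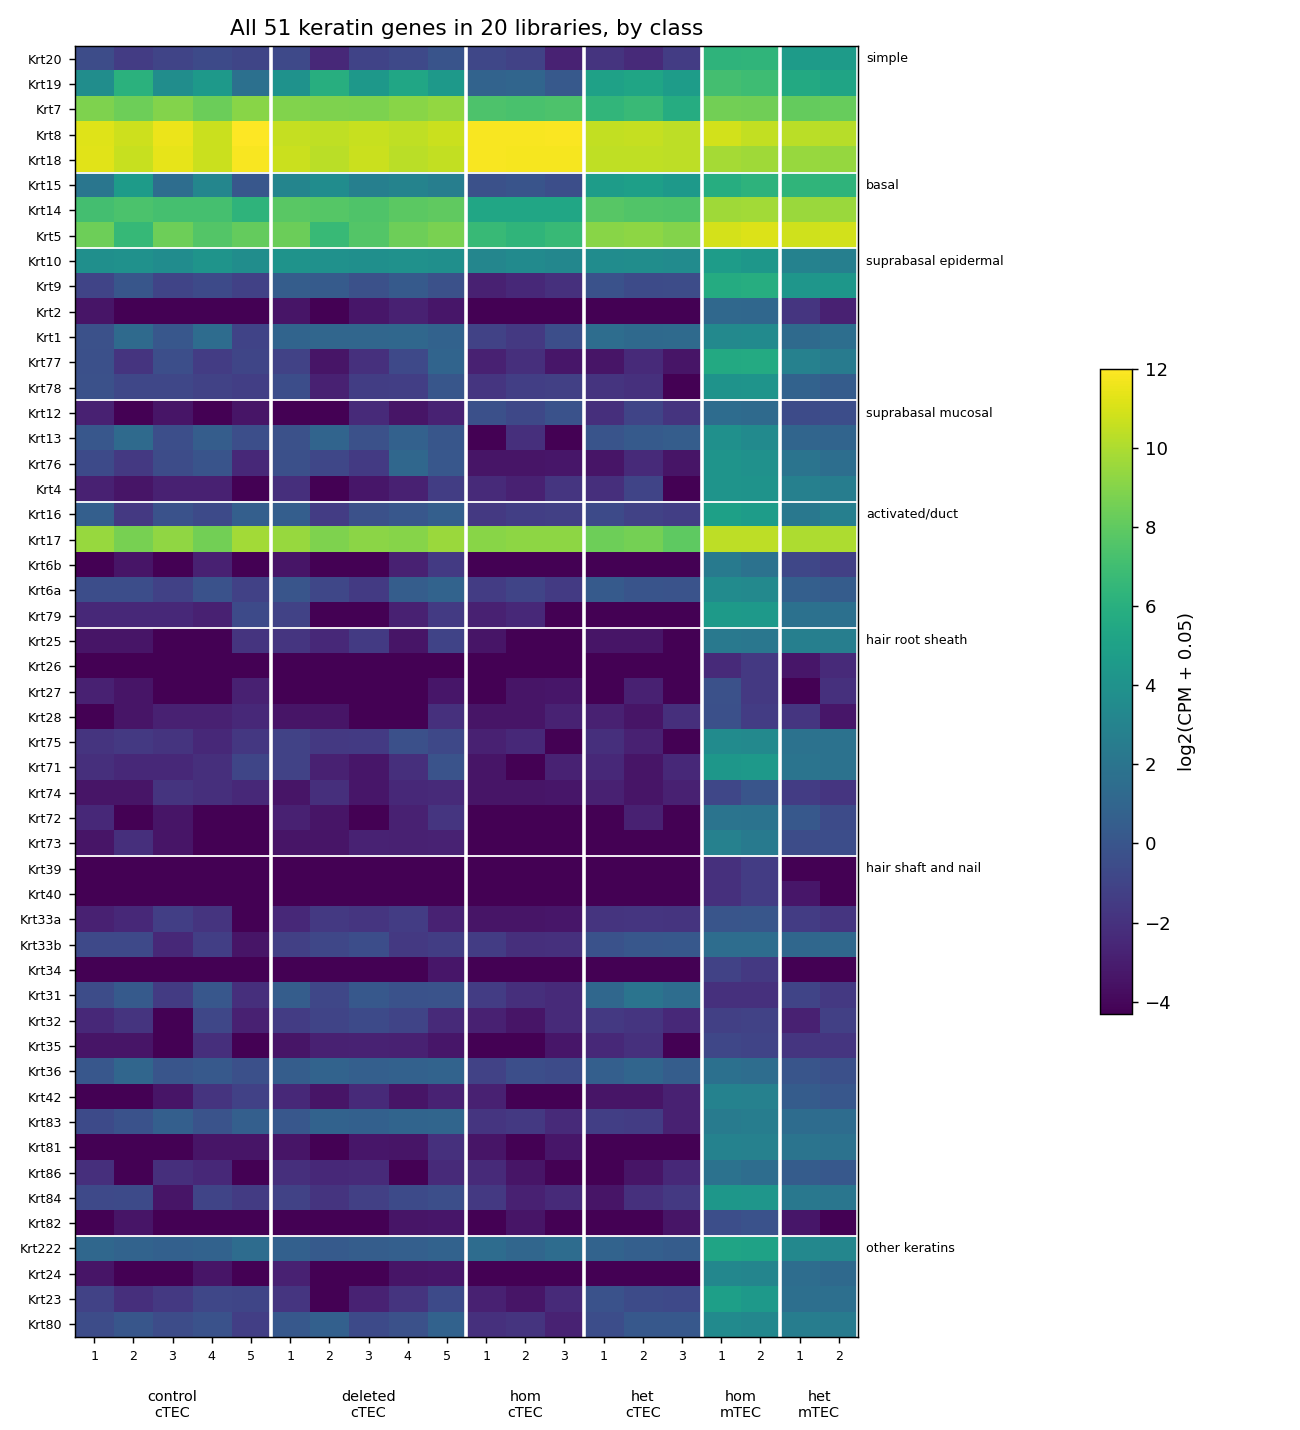
Level of all 51 keratins (rows, by class) in 20 libraries (columns, by group) as log2 of CPM plus 0.05. Most rows of the suprabasal and hair classes are brightest (highest) in the 2 homozygous mTEC libraries and darkest in cTEC. Exceptions include Krt10, darkest in heterozygous mTEC, and Krt31, brightest in heterozygous cTEC.

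Transgene dose was compared first in cTEC. Simple and basal keratins moved in opposite directions: the simple keratins Krt8, Krt18 and Krt7 were lower in heterozygous than in homozygous cTEC, and all 3 basal keratins and the simple keratin Krt19 were higher. Of 43 keratins tested, 14 were higher (32.6%) and 7 lower (16.3%) at an adjusted p under 0.05 by edgeR's quasi-likelihood test. Over all 19222 genes tested, 20.9% were called higher and 21.9% lower. Of these 43, 22 averaged under 10 counts in both cTEC groups and were tested because of their level in mTEC; 1 of them was called higher and 1 lower. Among the other 21, 13 were called higher and 6 lower, with a median log2 change of 1.89. The median over all 43 was 0.29 as fitted, and 0.54 over the 35 left after 8 without a usable fold were dropped and 1 was set at its bound, against 0.00 for all genes. Without normalization factors the median of all genes moved to 0.113 and the lower share of calls from 51.1% to 32.5%, and Krt10 was then called higher as well. In bulk libraries fewer cells of a type and less RNA per cell cannot be told apart.

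Krt8, the type II simple chain, had 3759, 3725 and 3860 CPM in homozygous and 1446, 1519 and 1357 CPM in heterozygous cTEC. Its partner Krt18 had 3748, 3608 and 3564 CPM against 1383, 1424 and 1317. The groups were far apart for both, and the log2 changes were -1.53 ± 0.09 (SE) for Krt8 and -1.54 ± 0.06 for Krt18 (adjusted p = 1.93e-08 and 1.01e-09). Krt8 and Krt18 moved by almost the same factor, so the log2 ratio of their counts was 0.06 ± 0.06 (SD, n = 3) in homozygous and 0.07 ± 0.02 (SD, n = 3) in heterozygous cTEC. Krt7 fell by 1.13 on the log2 scale, from 157.6 to 173 CPM down to 56.49 to 107.8, and Krt20, a simple keratin of gut epithelium, stayed at or under 0.514 CPM in every library of both groups.

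Krt19 went the other way. It had 1.823, 1.949 and 1.141 CPM in homozygous cTEC and 32.03, 38.42 and 25.84 in heterozygous cTEC, a log2 change of 4.15 ± 0.21 (adjusted p = 4.82e-09). Krt5, the type II basal chain, had 102.3, 82.09 and 101.6 CPM in homozygous and 554.8, 591.1 and 496.2 CPM in heterozygous cTEC (log2 change 2.39 ± 0.10). Krt14, its type I partner, had 40.3, 40.25 and 39.85 CPM against 213.4, 194.3 and 182.9 (2.16 ± 0.07). Krt15 rose most among the basal genes, from 0.795, 0.907 and 0.713 CPM to 26.13, 29.66 and 22.12 (4.87 ± 0.19). The groups did not overlap for these 4 genes, which held upward for 36.5% and downward for 18.3% of all genes tested. The log2 ratio of Krt5 to Krt8 counts was -5.32 ± 0.16 (SD, n = 3) in homozygous and -1.40 ± 0.05 (SD, n = 3) in heterozygous cTEC.

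**Figure D3:**
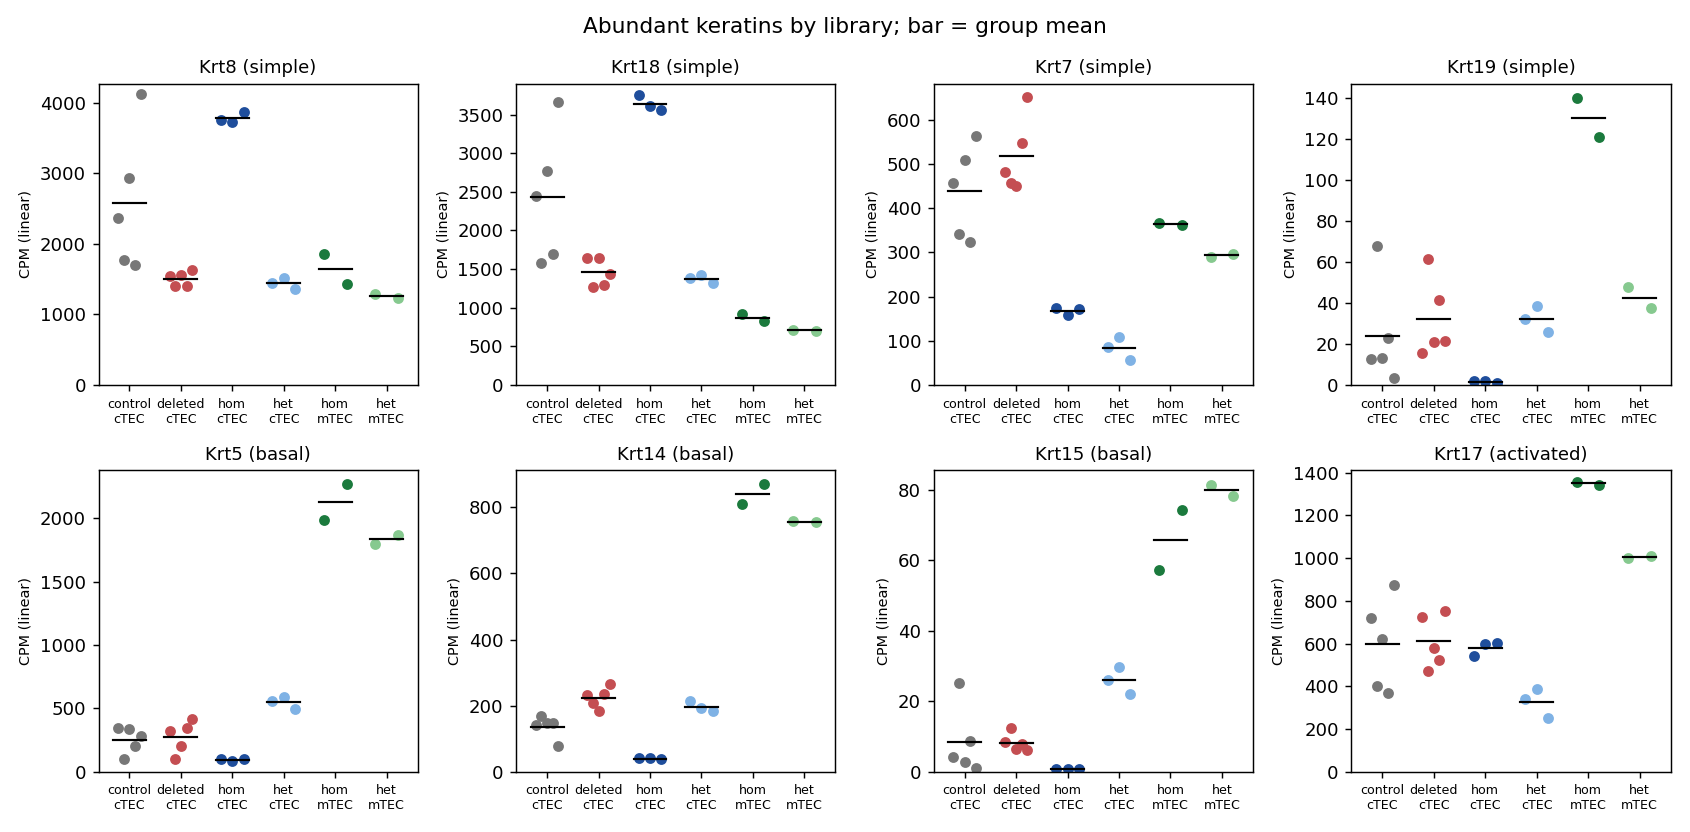
CPM (y axis, linear, each panel on its own scale) of 8 keratins in each library by group (x axis), with the group mean as a bar. Krt8 and Krt18 are highest in homozygous cTEC, and Krt5 and Krt14 are highest in the mTEC groups, with heterozygous cTEC between homozygous cTEC and mTEC.

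Markers of mTEC and of fibroblasts also moved between these groups, those of mTEC in both directions. The summed mTEC list reached 81.87 to 166.2 CPM in heterozygous against 56.24 to 75.71 in homozygous cTEC, with Cldn3, Cldn4 and Ccl21a called higher and Aire, Fezf2 and Cd80 called lower. In heterozygous cTEC the list stood at 3.57% of its level in heterozygous mTEC, with Aire at 0.141% and Cldn4 at 10.2%. Krt5 stood at 29.8%, Krt14 at 26.0%, Krt15 at 32.5% and Krt19 at 75.3%. Krt9 stood at 3.49%, Krt77 at 1.2% and Krt20 at 0.912%. In homozygous cTEC Krt5, Krt14, Krt15 and Krt19 stood at 1.23 to 4.78% of their level in homozygous mTEC, and Cldn4 at 0.648%. Fibroblast markers (8 genes) summed to 355 to 375.4 CPM in heterozygous and 104.9 to 119.8 in homozygous cTEC, with 5 of 8 called higher and none lower. The part of mTEC and of fibroblasts in the keratin result was not tested. All 7 cTEC markers and all 10 thymocyte markers were lower in heterozygous cTEC. Over all genes tested, 20.9% were called higher and 21.9% lower.

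Suprabasal keratins were mostly low in both cTEC groups. Krt1, the epidermal suprabasal type II chain, had 0.421, 0.272 and 0.713 CPM in homozygous and 2.787, 2.317 and 2.478 in heterozygous cTEC, a log2 change of 2.29 ± 0.27 (adjusted p = 1.24e-05). Krt10, its partner, had 9.163, 11.15 and 9.274 CPM against 12.06, 12.56 and 11.89 (log2 difference 0.17 ± 0.12, adjusted p = 0.286). Krt1 therefore passed the test in cTEC without its partner. Krt13, the mucosal type I chain, had 0, 0.181 and 0 CPM against 0.914, 1.205 and 1.331 (3.97 ± 0.59), and its partner Krt4 reached at most 0.464 CPM and did not pass. Krt17, the type I keratin of activated cells and ducts, fell from 542.5, 600.6 and 601.7 CPM to 339.4, 387.4 and 251.9, by 0.97 on the log2 scale. The other called keratins of cTEC were at or under 3.8 CPM in each cTEC library. Krt6a, Krt9, Krt23, Krt80 and the hair keratins Krt31, Krt33a, Krt33b and Krt36 were higher, and Krt12, Krt79 and Krt222 lower. Krt31, a keratin of the hair cortex, had 2.147, 3.8 and 2.753 CPM in heterozygous cTEC and at most 0.327 in homozygous cTEC (3.57 ± 0.35). These calls rest partly on few counts: Krt79 had 5 counts over the homozygous and 0 over the heterozygous libraries (at least 1.69-fold lower, floor of 3 counts over the group), and Krt33a had 3 against 15 counts, a ratio of 4.94 (exact 95% interval 1.4 to 26.6). Reads of the near-identical genes Krt33a and Krt33b, Krt6a and Krt6b, and Krt14, Krt16 and Krt17 may be split between them or lost by the counting, so single values of these genes are uncertain.

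In mTEC the same comparison of dose left the basal keratins under the threshold, and most suprabasal and hair keratins were lower at the heterozygous dose. Of the 43, 36 were lower in heterozygous than in homozygous mTEC (83.7%) and Krt25 alone was called higher, against 30.8% lower and 28.9% higher over all genes (59.7% either way). The keratin median was -1.70 on the log2 scale and that of all genes 0.007. With DESeq2 size factors in the same fit, the median of all genes moved to -0.121 and the lower share of all calls from 51.6% to 64.4%. The filter kept some keratins because of their level in homozygous mTEC: 5 (Krt2, Krt6b, Krt33a, Krt74 and Krt82) averaged 10 counts only there, so the counts of called keratins are an account of members and not a measure over the family. Of the 21 keratins with at least 10 counts on average in a cTEC group, 15 were lower and 0 higher in heterozygous mTEC. Macrophage and dendritic cell markers (7 genes) summed to 513.4 to 606.7 CPM in homozygous and 105.2 to 106.9 in heterozygous mTEC, with 5 called lower in heterozygous mTEC, and B cell markers to 36.57 to 44.35 against 17.7 to 20.58. Thymocyte markers summed to 77.03 to 99.17 against 40.82 to 42.1 CPM with all 10 called lower, and cTEC markers to 434.4 to 614.5 against 165.8 to 172.8 with all 7 lower. Of the 8 mTEC markers, Cldn3, Cldn4, Cd80 and Fezf2 were lower, Tnfrsf11a was higher, and Aire, Ccl21a and Spib did not pass. The part of these cell types in the result was not tested. Foxn1 itself was higher in the libraries labelled heterozygous.

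Basal keratins did not pass. Krt5 had 1983 and 2269 CPM in homozygous and 1801 and 1868 in heterozygous mTEC (log2 difference -0.19 ± 0.11, adjusted p = 0.155). Krt14 had 809.6 and 870.2 CPM against 757.4 and 756.7 (-0.13 ± 0.08, adjusted p = 0.185), and Krt15 had 57.18 and 74.16 against 81.47 and 78.2 (0.31 ± 0.13, adjusted p = 0.0501). Some settings placed these genes past the threshold: Krt5 and Krt14 were called lower with DESeq2 size factors or the DESeq2 test, and Krt15 higher with limma-voom, the replicate block, a fit on the mTEC libraries alone, and without heterozygous cTEC library 2 or 3 or homozygous mTEC library 2. Without homozygous mTEC library 2 the log2 difference of Krt15 was 0.51 (adjusted p = 0.0123).

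Most simple keratins were lower too, Krt8 and Krt18 by smaller factors than in cTEC (interaction adjusted p = 2.34e-05 and 8.63e-07). Krt8 had 1861 and 1432 CPM in homozygous and 1286 and 1239 in heterozygous mTEC (-0.36 ± 0.11, adjusted p = 0.0106), and Krt18 had 915.1 and 828.4 against 713.9 and 701.8 (-0.28 ± 0.08, adjusted p = 0.00776). Both calls were lost without homozygous library 1 (adjusted p = 0.155 for Krt8 and 0.0578 for Krt18) or without heterozygous library 2 (0.0715 and 0.0597). Krt19 had 140 and 120.7 CPM against 47.89 and 37.38, a fall of 1.59 on the log2 scale, and Krt20 had 80.33 and 82.08 against 25.29 and 25.06, a fall of 1.67. Krt7 had 366.8 and 362.2 CPM against 290.2 and 295.7, and did not pass (adjusted p = 0.191).

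All 6 suprabasal epidermal, all 4 suprabasal mucosal and all 5 activated or duct keratins were lower in heterozygous mTEC, against 30.8% of all genes. Krt2 and Krt6b among them averaged at least 10 counts only in homozygous mTEC and were tested because of that level, so they are only accounted for. Summed over the class, suprabasal epidermal keratins had 155.8 and 160.9 CPM in homozygous and 36.58 and 38.43 CPM in heterozygous mTEC. Krt77, known in human from sweat gland ducts, had 49.35 and 51.11 CPM against 7.252 and 5.522, a fall of 2.95 on the log2 scale (SE 0.15, adjusted p = 2.18e-08). Krt9, the keratin of palm and sole skin, had 51.76 and 58.74 CPM against 19.36 and 20.15 (-1.46 ± 0.11), and Krt10 had 25.65 and 20.37 against 7.394 and 6.607 (-1.69 ± 0.14). The groups did not overlap for these 3 genes, which with 2 libraries each held downward for 41.5% and upward for 38.6% of all genes tested. Krt1 had 10.32 and 11.2 CPM against 2.496 and 2.926 (-1.96 ± 0.21), and Krt78 had 16.48 and 17.36 against 1.695 and 1.274 (-3.48 ± 0.25). Among the mucosal keratins, Krt4 had 17.69 and 16.9 CPM against 6.828 and 5.947 (-1.41 ± 0.24), Krt13 had 14.35 and 11.34 against 1.931 and 1.841 (-2.74 ± 0.27), and Krt76 of the oral palate had 17.13 and 15.09 against 3.815 and 2.879 (-2.24 ± 0.18). Krt12, the keratin of corneal epithelium, had 2.639 and 2.453 CPM against 0.612 and 0.661.

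Of the activated keratins, Krt17 had 1356 and 1345 CPM against 1002 and 1008 (-0.40 ± 0.14, adjusted p = 0.0256), and this call was lost in each fit without 1 of the 4 mTEC libraries. The other members had larger log2 changes. Krt16 had 31.53 and 26.25 CPM against 4.521 and 6.607 (-2.35 ± 0.18), Krt6a had 11.57 and 10.42 against 1.46 and 1.321 (-2.95 ± 0.20), and Krt79 of the hair follicle infundibulum had 23.8 and 22.13 against 3.296 and 3.257 (-2.78 ± 0.20). Hair shaft and nail keratins summed to 51.38 and 53.1 CPM against 16.66 and 17.99, and root sheath keratins to 46.8 and 49.59 against 15.2 and 16.39. Krt84, a keratin of nail and tongue papillae, had 19.68 and 18.89 CPM against 4.615 and 4.248 (-2.10 ± 0.19), and Krt71 of the inner root sheath had 19.86 and 21.8 against 3.815 and 3.445 (-2.50 ± 0.18). Krt75 of the companion layer had 11.81 and 10.09 CPM against 3.579 and 3.587 (-1.59 ± 0.24). The other root sheath keratins called lower were Krt72 (-2.11 ± 0.34), Krt73 (-3.16 ± 0.31) and Krt74 (-1.30 ± 0.43), and in the hair shaft and nail class Krt33a (-1.70 ± 0.35), Krt36 (-1.81 ± 0.28), Krt42 (-2.62 ± 0.26), Krt81 (-0.99 ± 0.20), Krt82 (-4.67 ± 0.80), Krt83 (-1.06 ± 0.23) and Krt86 (-1.36 ± 0.34) were lower as well. All of them were at or under 7.593 CPM in every library. Krt33a, Krt74 and Krt82 averaged at least 10 counts only in homozygous mTEC and were tested because of that level, so they are only accounted for. Krt82 rests on 33 counts against 1, and the calls of Krt74 and Krt86 were lost without some libraries. Krt31 (1.03 ± 0.64) and Krt33b (-0.34 ± 0.22) did not pass. Krt25, also of the root sheath, had 4.815 and 4.398 CPM in homozygous and 6.64 and 6.277 in heterozygous mTEC (0.51 ± 0.20, adjusted p = 0.0411). This call was lost with other scaling, without the filter, with DESeq2 and without any 1 of the 4 mTEC libraries (adjusted p up to 0.353). In no class, Krt23 had 30 and 22.78 CPM against 3.061 and 3.068 (-3.08 ± 0.18), Krt222 had 36.3 and 34.49 against 9.795 and 8.826 (-1.90 ± 0.14), and Krt80 had 11.16 and 9.582 against 5.981 and 5.428 (-0.84 ± 0.18).

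The difference between the dose responses of the subsets was tested as an interaction, the mTEC change minus the cTEC change. It was called for 27 of 43 keratins, 23 of them with a lower and 4 with a higher change in mTEC, against 17.2% and 25.2% of all genes. Over all genes that is 3314 lower and 4848 higher calls, and 4119 lower and 3106 higher ones without normalization factors. Of the 21 keratins counted in cTEC, 16 had a lower and 4 a higher change. The other 7 lower calls fell among the 22 keratins tested because of their level in mTEC, so they are only accounted for. The 4 with a higher change were Krt8 (1.17 ± 0.14), Krt18 (1.26 ± 0.10), Krt7 (0.84 ± 0.24) and Krt17 (0.57 ± 0.18), which fell more in cTEC than in mTEC. The calls for Krt7, Krt17, Krt31, Krt42, Krt76, Krt77, Krt78 and Krt84 were lost in at least 1 setting, for Krt17 with either other scaling (adjusted p = 0.0771 and 0.0965). All 3 basal keratins had a negative difference (Krt5 -2.58 ± 0.15, Krt14 -2.29 ± 0.11, Krt15 -4.56 ± 0.24), being higher in heterozygous cTEC without passing in mTEC. Krt19 (-5.74 ± 0.27), Krt13 (-6.71 ± 0.61), Krt1 (-4.26 ± 0.34), Krt9 (-3.59 ± 0.36), Krt23 (-5.70 ± 0.49), Krt6a (-4.27 ± 0.36) and Krt80 (-3.12 ± 0.41) were called higher in heterozygous cTEC and lower in heterozygous mTEC. So were the hair keratins Krt36 (-3.09) and Krt33a (-3.75), Krt33a with under 10 counts on average in both cTEC groups. Both dose comparisons come from a single fit and share its filter, scaling and estimate of spread, so they are not independent. The mTEC change itself compares mTEC libraries only.

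**Figure D4:**
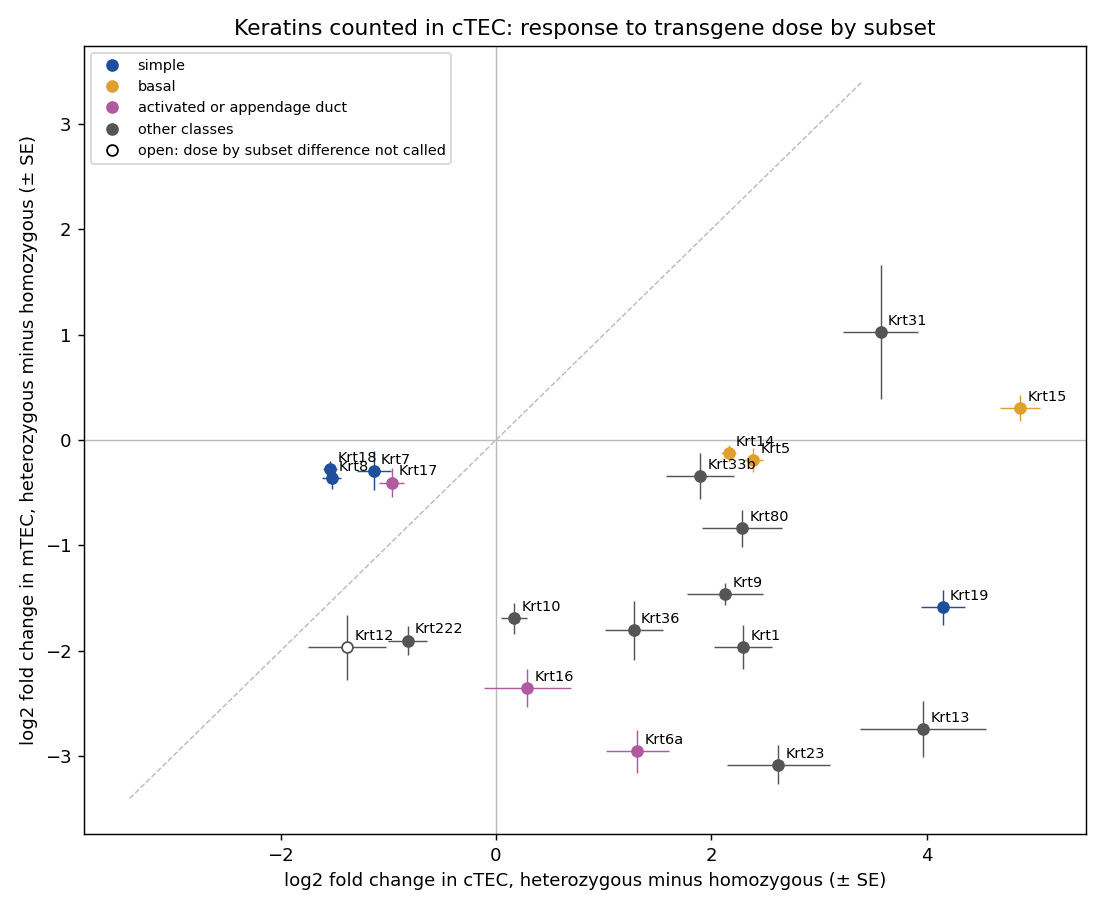
Log2 fold change with transgene dose (heterozygous minus homozygous, ± SE) in cTEC (x axis) and mTEC (y axis) for the 21 keratins with a mean of at least 10 counts in a transgenic cTEC group; the dashed line marks equal change, and open symbols mark genes whose difference between subsets was not called. Krt5, Krt14 and Krt15 lie right of 0 near the horizontal line, Krt8 and Krt18 lie left, and Krt19, Krt13, Krt1 and Krt23 lie right and low.

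Medulla was then compared with cortex at each dose. The 22 keratins with under 10 counts on average in both cTEC groups were tested because of their level in mTEC. This favours a difference, so they are only accounted for. All 22 were called higher at homozygous and 20 at heterozygous dose, where Krt33a and Krt82 did not pass. Of the 21 counted in cTEC, 18 were higher and 2 lower in homozygous mTEC, with a median log2 change of 4.14. Over all genes 43.2% were called higher and 39.4% lower (82.6% either way). At heterozygous dose 12 of the 21 were higher and 5 lower, with a median of 1.08, against 40.4% and 31.6% of all genes. The lower share of calls over all genes was 47.7% at homozygous dose and 37.5% without normalization factors, where the median of all genes moved from 0.037 to 0.280. At heterozygous dose that median was 0.087. The dose and subset comparisons share libraries, so each is given with its own values.

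At homozygous dose the 2 lower keratins were the simple pair, Krt8 (-1.44 ± 0.10) and Krt18 (-2.31 ± 0.08). Krt18 fell further than Krt8: the log2 ratio of Krt8 to Krt18 counts was 0.91 ± 0.17 (SD, n = 2) in homozygous and 0.83 ± 0.02 (SD, n = 2) in heterozygous mTEC, outside the range of -0.09 to 0.18 over all cTEC libraries. Krt5 was higher by 4.24 ± 0.11, Krt14 by 4.14 ± 0.08 and Krt15 by 6.09 ± 0.18 on the log2 scale. At heterozygous dose these differences were 1.66 ± 0.10, 1.86 ± 0.07 and 1.53 ± 0.12. Krt8 was lower there (log2 change -0.28 ± 0.10, adjusted p = 0.0214), a call lost with either other scaling (adjusted p = 0.0562 and 0.0909), and so was Krt18 (-1.04 ± 0.07). Krt19 (0.32 ± 0.15, adjusted p = 0.07) and Krt1 (0.01 ± 0.22) did not pass between the heterozygous subsets, whereas at homozygous dose they were higher in mTEC by 6.06 ± 0.20 and 4.27 ± 0.24. Krt10 was higher in mTEC at homozygous dose (0.98 ± 0.12) and lower at heterozygous dose (-0.88 ± 0.14).

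Many keratins of mTEC had few or no counts in cTEC. Of the 43, 22 averaged under 10 counts in both transgenic cTEC groups. Krt24 had 389 counts over the homozygous mTEC libraries and 0 over homozygous cTEC, at least 194-fold higher in CPM (floor of 3 counts over the group). By the same measure the root sheath keratin Krt73 was at least 130-fold, Krt6b at least 92-fold, Krt72 at least 80.6-fold and Krt2, of the upper epidermis, at least 47.3-fold higher. Krt20 had 80.33 and 82.08 CPM in homozygous mTEC and 0.0951 to 0.514 in homozygous cTEC. Some hair keratins ran the other way at heterozygous dose. Krt31 was lower in heterozygous mTEC (0.471 and 0.283 CPM) than in heterozygous cTEC (log2 change -3.01 ± 0.36), and so was Krt36 (-0.98 ± 0.28), a call lost without heterozygous mTEC library 2. Most macrophage and dendritic cell, B cell, erythroid and endothelial markers were also higher in mTEC, while fibroblast and thymocyte markers varied with dose. The part of these cell types in the differences was not tested. At homozygous dose, 7 of 7 macrophage and dendritic cell, 5 of 5 B cell, 5 of 5 erythroid, 4 of 5 endothelial, 6 of 8 fibroblast and 3 of 10 thymocyte markers tested were called higher, against 43.2% of all genes. At heterozygous dose these counts were 6 of 7, 5 of 5, 5 of 5, 5 of 5, 4 of 8 and 8 of 10, against 40.4% of all genes. Called lower were 2 thymocyte markers at homozygous and 4 fibroblast markers at heterozygous dose, where 39.4% and 31.6% of all genes were lower.

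Deletion of Foxn1 for 72 h changed no keratin past the threshold in the main fit. Of 23 keratins tested, 0 were called by edgeR, against 1.97% of 15224 genes (43 higher and 257 lower), and 4 had an unadjusted p under 0.05 (Krt8 and Krt18 lower, Krt14 and Krt9 higher). DESeq2 called 3, Krt8 and Krt18 lower and Krt14 higher. With the library number as a block, edgeR called Krt8 and Krt18 lower (adjusted p = 0.0462 and 0.0448), though no label says that the numbers mark pairs. The median over keratins was 0.20 on the log2 scale and 0.012 over all genes.

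Krt8 had 2370, 1776, 2928, 1693 and 4124 CPM in control libraries 1 to 5 and 1549, 1399, 1561, 1396 and 1635 in deleted libraries 1 to 5. The groups did not overlap, which held downward for 4.16% of all genes tested. Its log2 difference was -0.81 ± 0.24 with an adjusted p of 0.113, and 0.0412 without control library 2 or 0.0495 without control library 4. Krt18 had 2440, 1584, 2764, 1698 and 3666 CPM against 1647, 1271, 1641, 1300 and 1443 (-0.77 ± 0.24, adjusted p = 0.122, and 0.0373 without control library 2). Control levels spread widely and deleted levels did not: the highest values of both genes were in control library 5, which also had the highest cTEC marker sum (15270 CPM). Summed cTEC markers of the control libraries were 7243, 3828, 8601, 4747 and 15270 CPM and those of the deleted libraries 805.5, 1421, 1134, 969.9 and 1204, with 5 of 7 markers called lower. The log2 ratio of Krt8 to Krt18 counts stayed between -0.09 and 0.18 in all 10 libraries.

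Krt14 had 140, 169.3, 148.8, 146.8 and 77.28 CPM in control and 231.9, 207.6, 183.3, 233.9 and 265.5 in deleted libraries. Every deleted library was above every control library, which held upward for 1.79% of all genes tested. The log2 difference was 0.70 ± 0.17 with an adjusted p of 0.0693, and it passed without control library 2 (0.0366) or without control library 5 (0.0213). Krt5, its partner, had 343.6, 98.33, 341.1, 202.2 and 279.5 CPM against 321.6, 103, 202.7, 343.1 and 414.7, with overlapping groups (0.10 ± 0.40, adjusted p = 0.922, with the sign turning to -0.12 without control library 2). Fibroblast markers summed to 408.2 to 925.4 CPM in control and 863.3 to 1533 in deleted cTEC, none of the 8 called; their part in the Krt14 difference was not tested. Krt9 had 0.457, 1.003, 0.451, 0.589 and 0.402 CPM against 1.384, 1.232, 0.766, 1.194 and 0.772 (0.86 ± 0.30, adjusted p = 0.157, and 0.0425 without control library 2).

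Library 2 of each group stood apart in basal and simple genes too. Krt5 was lowest there (98.33 and 103 CPM). Krt15 was highest there, at 25.12 and 12.5 CPM against 1.028 to 8.836 in the other 8 libraries, and Krt19 as well, at 67.78 and 61.55 CPM against 3.263 to 41.24. Krt5 and Krt15, both basal keratins, thus ran in opposite directions in these 2 libraries. With both left out, 0 keratins were called, the log2 differences of Krt8, Krt18 and Krt14 were -0.89, -0.85 and 0.80 (adjusted p = 0.0842, 0.0775 and 0.0594), and 474 genes were called in all. Krt17 (-0.00 ± 0.26), Krt7 (0.20 ± 0.18), Krt10 (0.04 ± 0.10), Krt1 (0.42 ± 0.41) and Krt13 (-0.07 ± 0.38) did not pass either, and Krt4 was at or under 0.338 CPM in all 10 libraries. An adjusted p over 0.05 does not show that levels were equal.

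**Figure D5:**
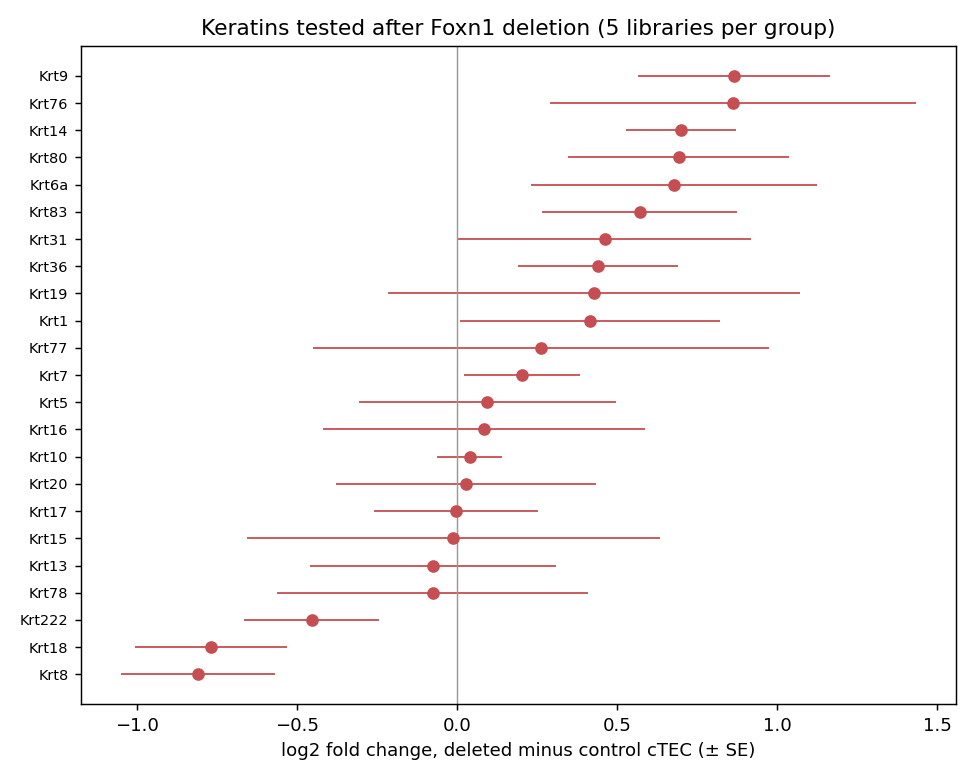
Log2 fold change (x axis, deleted minus control cTEC, ± SE) of the 23 keratins tested after deletion, ordered by size, with 5 libraries a group. Krt8 and Krt18 are lowest at -0.81 and -0.77, Krt14 is at 0.70, and none passed the threshold.

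Genes that regulate, anchor or accompany keratins were read from 3 lists. Of 17 regulators of keratin genes, 14 were higher and 1 (Ovol1, a zinc finger repressor) lower in heterozygous than in homozygous cTEC, where 20.9% of all genes were higher and 21.9% lower. Smallest in adjusted p was Ehf, an epithelial ETS factor, with 10.85 against 1.812 CPM (log2 change 2.44 ± 0.14), and Trp63, the p63 gene of stratified epithelia, was higher by 0.31 ± 0.07 in cTEC and 0.30 ± 0.08 in mTEC. In mTEC 5 regulators were higher, Notch1 first (1.18 ± 0.15), and 8 lower, Ovol1 first (-1.22 ± 0.14), where 28.9% of all genes were higher and 30.8% lower. After deletion, 0 of 16 were called, against 1.97% of all genes. Between the subsets at homozygous dose, 11 of the 17 were higher and 4 lower in mTEC, against 43.2% and 39.4% of all genes. At heterozygous dose 8 were higher and 6 lower, against 40.4% and 31.6%. At both doses Ehf came first among the higher and Trp63 first among the lower. The log2 changes of Trp63 were -1.45 ± 0.08 (homozygous) and -1.46 ± 0.08 (heterozygous).

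Of 21 genes that anchor or organise keratin filaments, 6 were higher and 10 lower in heterozygous cTEC, against 20.9% and 21.9% of all genes. Col17a1, the collagen of the basal hemidesmosome, rose from 15.13 to 47.58 CPM (1.52 ± 0.06), and Evpl, which encodes the desmosomal linker envoplakin, fell from 27.59 to 13.45 (-1.17 ± 0.10). Evpl was also the 1 of 20 called after deletion, at 27.16 CPM in control and 11.26 in deleted cTEC (-1.31 ± 0.26, adjusted p = 0.0332). In mTEC 5 were higher and 5 lower, no more than the 28.9% and 30.8% of all genes, with Dsc3, a desmosomal cadherin, first among the higher (0.54 ± 0.07) and Jup, which encodes plakoglobin, first among the lower (-0.38 ± 0.08). Of 16 other intermediate filament genes, 2 were higher and 9 lower in heterozygous cTEC, against 20.9% and 21.9% of all genes, with Lmnb2, a nuclear lamin, at 0.38 ± 0.06 and Nefm, a neurofilament chain, at -1.62 ± 0.07. Nefm also fell after deletion, from 57.97 to 14.14 CPM (-2.08 ± 0.35, adjusted p = 0.0179), and Lmna rose (0.47 ± 0.09, adjusted p = 0.0342). In heterozygous mTEC 3 were higher, Lmnb1 first (0.92 ± 0.10), and 9 lower, Lmna first (-0.62 ± 0.07), against 28.9% and 30.8% of all genes.

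The 8 keratins not described above with values (Krt26, Krt27, Krt28, Krt32, Krt34, Krt35, Krt39 and Krt40, of the root sheath and hair shaft) stayed under 1 CPM in every group mean and were not tested in the transgenic set. Krt74, counted here as a root sheath keratin, is annotated as a transcribed pseudogene in RefSeq.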

How the data were processed

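The authors deposited 1 table of whole-number read counts, with gene symbols as rows and 20 libraries as columns, and these counts were the input. The submitters' processing notes name TopHat2 2.0.10, Bowtie2 2.2.3, featureCounts, SAMtools, Picard 1.105, Trimmomatic 0.32, BWA 0.7.5 and MACS2 2.0.10, and the builds mm10 and GRCm38, without saying which step used which. The annotation and the strandedness of the counting were not given in the sources used here, so reads of a gene and an antisense partner cannot be told apart. Chromatin samples were not analysed here.

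Tests used edgeR 4.0.16 under R 4.3.3 (quasi-likelihood, TMM factors, filterByExpr with minimum count 10 and minimum total 15, prior count 0.125, two-sided, Benjamini-Hochberg over all genes tested, threshold 0.05). The deletion set was fitted on its own 10 libraries, the transgenic set in a single fit with 4 groups. Alternatives used DESeq2 1.42.0, limma-voom (limma 3.58.1), other scaling, no filter, a replicate block, a fit on the compared groups and leaving out each library. Totals were 20719630 to 22372633 counts per library; floors of 3 counts and intervals cover counting error only. Within a group, the mean chi-square statistic per gene was 3.87 or more for every pair of libraries, so none was merged. It is a description without a p-value. The test scripts were tested on simulated data.

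Named with values were all keratins with a group mean of at least 1 CPM and all called ones (43 of 51). Full values were given for Krt1, Krt4, Krt5, Krt7, Krt8, Krt10, Krt13, Krt14, Krt15, Krt17, Krt18 and Krt19 and for called members with a group mean of at least 10 CPM. Examples from the companion lists are the called genes of smallest adjusted p in each direction; Trp63 was added after its values were seen. Members, classes and lists were chosen with earlier results of these data known.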

Additional observations from a re-analysis of the deposited data

Results flagged for a closer look

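The dose response differed between mTEC and cTEC, by the interaction test of the edgeR fit, for 27 keratins, given as the log2 change in mTEC minus that in cTEC. The simple keratins Krt8 (1.17), Krt18 (1.26) and Krt7 (0.84) and the activated keratin Krt17 (0.57) had the higher change in mTEC. Negative differences were found for the basal keratins Krt5 (-2.58), Krt14 (-2.29) and Krt15 (-4.56) and the simple keratin Krt19 (-5.74). They were also found for the suprabasal keratins Krt1 (-4.26), Krt9 (-3.59), Krt10 (-1.86), Krt13 (-6.71), Krt76 (-2.78), Krt77 (-2.35) and Krt78 (-2.14), and for Krt6a (-4.27) and Krt16 (-2.64) of the activated class. Hair keratins with a negative difference were Krt31 (-2.55), Krt33a (-3.75), Krt33b (-2.24), Krt36 (-3.09), Krt42 (-3.38), Krt71 (-3.49) and Krt84 (-1.95). The remaining genes were Krt23 (-5.70), Krt80 (-3.12) and Krt222 (-1.08). For Krt33a, Krt42, Krt71, Krt76, Krt77, Krt78 and Krt84 the cTEC side rests on under 10 counts per library on average. The calls of Krt7, Krt17, Krt31, Krt42, Krt76, Krt77, Krt78 and Krt84 were lost in at least 1 other setting.

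In control cTEC library 5 the summed root sheath keratins reached 1.34 CPM, above the 0.589 to 0.777 CPM of the other 4 control libraries. Chance flags about 1 in 20 groups, and 1 of 47 groups examined was flagged.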

How the results depend on the processing

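Of the keratins called, 42 of 42 kept call and direction in every setting run for homozygous mTEC against cTEC, 19 of 21 for dose in cTEC, 31 of 37 for dose in mTEC, 32 of 37 for heterozygous mTEC against cTEC and 19 of 27 for the interaction. Fold changes were recomputed for pairs of gene and comparison that were called or had a compared group at 1 CPM or more, a limit set after sign changes of low-count genes were seen. Interaction calls numbered 20 without the filter (27 with it) and 20 to 26 with 1 library left out. The deletion called 1108 genes with DESeq2, 104 with limma-voom, 1220 with the replicate block, 474 without both libraries numbered 2 (chosen after seeing the data) and 27 (without deleted library 4) to 920 (without control library 2) with 1 library left out, outside 1.5 times the main 300 for every library but control library 5; keratins called were 3 with DESeq2, 2 (Krt8 and Krt18) with the replicate block and 0 to 4 with 1 library left out. The 4 came without control library 2. CPM on TMM-scaled totals moved the summed simple keratins to 8322 in homozygous cTEC (7590 on raw totals) and 2195 in heterozygous mTEC (2331), and the summed basal keratins to 149.4 (136.3) and 2515 (2672).

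Signs turned in the deletion only for genes near 0 or with large SE. Krt13 was 0.0708 without both libraries 2; Krt15 was 0.68 with limma-voom, 0.56 with the block and 0.76 without both libraries 2; Krt17 was 0.0015 with DESeq2 size factors or the DESeq2 test, 0.0314 without factors, 0.0636 with limma-voom and 0.0643 with the block. With 1 library left out the ranges were -0.0025 to 0.0818 (Krt10), -0.28 to 0.28 (Krt13), -0.29 to 0.94 (Krt15), -0.15 to 0.34 (Krt16), -0.16 to 0.20 (Krt17) and -0.12 to 0.31 (Krt5). In the interaction, limma-voom gave 0.13 for Krt25 and -0.91 for Krt79, and Krt25 ran from -2.15 to 0.30 with 1 library left out. Krt1 between heterozygous subsets ran from -0.053 to 0.20. The cause was not tested.

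No label pairs the libraries by number, and the main fit used no pairing. In the deletion set, deviations from the group means correlated between libraries of the same number at r = 0.601, 0.754, 0.085, 0.353 and 0.448 for pairs 1 to 5. Of its 10 libraries, 8 correlated best with their own number, a hint from the data and not the design. Whether the numbers mark pairs cannot be settled from the sources used here. Where a fit left 1 library in an mTEC group, that library was assumed to vary like the other groups. Depth limits the low keratins, and with 2 mTEC libraries a group the number of libraries limits the precision.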
